A study of Mus musculus with 23 samples.

Results

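The genes described here encode the proteins of the cytosolic ribosome. They were chosen by name, as every symbol of the forms Rpl or Rps followed by a number and its letter endings, the stalk genes Rplp0, Rplp1 and Rplp2, and Rpsa, with a mean level of at least 10 CPM, the unit of counts scaled to a common library total. Of the 24411 symbols in the count table, 85 matched the names and 78 also reached the level. These 78 comprised 43 genes of the large subunit, 3 stalk genes and 32 genes of the small subunit, spread over 19 chromosomes.

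The libraries came from cortical astrocytes pulled out of dissociated cortex with magnetic beads against ACSA-2, an antigen on the astrocyte surface, from male mice at postnatal day 70, 1 library a mouse. In the cKOAstro mice, Aldh7a1, an aldehyde dehydrogenase of lysine breakdown whose loss causes pyridoxine-dependent epilepsy, was floxed on both alleles and removed by CreER driven from 1 Slc1a3 allele, an astrocyte glutamate transporter locus that is also active in neural stem cells. ConAstro mice carried the same floxed alleles without Cre, and both genotypes received 4-hydroxytamoxifen on days 3 and 4 after birth. The diet was a control diet or one with sulforaphane (SFN), a plant isothiocyanate that activates the NRF2 antioxidant response, from day 21. On the control diet there were 4 ConAstro and 7 cKOAstro libraries and on the SFN diet 5 and 7, and the questions for the ribosomal protein genes were whether their levels differed with the loss of Aldh7a1, with the diet, or with the diet in 1 genotype more than in the other.

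A cytosolic ribosome is built from a small subunit, which reads the messenger RNA, and a large subunit, which joins the amino acids. Each subunit carries its own set of proteins, needed in about equal numbers, and their genes are among the most evenly co-regulated in mammalian cells. Most of their messages begin with a run of C and T at the cap, the terminal oligopyrimidine (TOP) motif, through which mTOR signalling and the protein LARP1 control how strongly they are translated, so that the level of the message and the making of the protein can part ways.

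The annotated start of the message was therefore searched for this run. RefSeq start sites (GRCm38.p6) were matched for 58 of the 78 genes, 74.4%, which is under the 80% needed for a check over the whole set, so that check is void and the counts hold for the matched genes alone. A run of at least 8 C or T within 3 bases of the start was found in 20 of the 58 (34.5%) and in 2499 of 27025 genes with a promoter (9.25%). Most of the matched genes thus lacked it at the RefSeq start, and the median run was 4 bases, against 3 over all genes. Whether the messages in these cells begin at the RefSeq start was not tested. The 30 bases around the start, 10 before and 20 from it on, are printed for 9 genes that recur in the results, 5′ to 3′ on the gene's strand, with the longest run of C and T that reaches within 3 bases of the start in capitals.

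Rpl14, chr9:120571507-120571536, plus strand: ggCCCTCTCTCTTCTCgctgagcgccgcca
Rpl18, chr7:45718061-45718090, plus strand: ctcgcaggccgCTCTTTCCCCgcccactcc
Rpl15, chr14:18270967-18270996, minus strand: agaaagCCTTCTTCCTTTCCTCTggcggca
Rpl13a, chr7:45128726-45128755, minus strand: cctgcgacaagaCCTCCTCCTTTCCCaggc
Rplp2, chr7:141447641-141447670, plus strand: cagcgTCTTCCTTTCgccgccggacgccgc
Rps6, chr4:86857348-86857377, minus strand: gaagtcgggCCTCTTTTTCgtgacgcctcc
Rpl27, chr11:101442235-101442264, plus strand: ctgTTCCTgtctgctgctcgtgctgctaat
Rpl6, chr5:121204491-121204520, plus strand: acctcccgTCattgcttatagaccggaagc
Rpl7l1, chr17:46782637-46782666, minus strand: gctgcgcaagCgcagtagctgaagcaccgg

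The first 6 carried the run and the last 3 did not, at the RefSeq start. Both kinds stood among the genes with the lowest p in the comparisons, since Rpl14, Rpl18 and Rps6 were there beside Rpl27 and Rpl6. Over the 300 bases from 250 before the start to 50 after it, on both strands, the ETS family letters CCGGAAG were found in 23 of the 58 promoters (39.7%, against 9.93% of all promoters) and the SP1 letters GGGCGG in 38 (65.5% against 38.2%). The YY1 letters AAGATGGC were found in 5 (8.62% against 3.19%), the TATA box letters TATAAA in 7 (12.1% against 15.7%), and the NRF2 core TGACNNNGC in 11 (19% against 14%). A match describes letters in the window and not a bound site.

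Across the series, total counts ran from 46890715 to 391701247 a library. They were 74770000 to 84050000 in ConAstro, 107800000 to 391700000 in cKOAstro, 46890000 to 219900000 in SFN-fed ConAstro and 86280000 to 140500000 in SFN-fed cKOAstro. On the control diet the genotypes thus did not overlap in depth, and SFN-fed cKOAstro also lay above ConAstro. Aldh7a1, which checks the labels, was at 207 to 220 CPM in ConAstro and at 45.9 to 77.2 CPM in cKOAstro, a log2 fold change of −1.86 ± 0.13 (SE) with an adjusted p of 6.9e-05 by the edgeR quasi-likelihood test. It went against the label in 2 libraries: the library labelled SFN-fed ConAstro 1 stood at 55.7 CPM, with the other 4 of its group at 177 to 226, and the library labelled SFN-fed cKOAstro 2 at 222 CPM, with the other 6 at 43.1 to 56.5. The medians, counts and main fold changes of the comparisons that use them are also given without them. The summed CPM of 8 astrocyte markers was 11600 to 23580 and that of 7 oligodendrocyte markers 21520 to 55860, the latter being higher in 22 of 23 libraries, so the preparations held much oligodendrocyte RNA, and 4 of 5 red blood cell markers, the globins, had no counts in any library. SFN-fed cKOAstro 1 stood apart for the ribosomal protein genes, as described next.

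All 78 genes were far above the reach of the depth: they held 25768098 reads in all, from 48254 for Rps4l to 1026615 for Rpl4. Together they took 0.726% ± 0.0675 (SD, n = 4) of the ConAstro counts and 0.752% ± 0.0884 (n = 7) of those of cKOAstro. With SFN the shares were 0.722% ± 0.0808 (n = 5) for ConAstro and 0.814% ± 0.145 (n = 7) for cKOAstro. Library by library the share was 0.711, 0.672, 0.825 and 0.698% in ConAstro and 0.835, 0.726, 0.761, 0.636 and 0.655% in SFN-fed ConAstro. In cKOAstro it ran from 0.651% over a median of 0.744% to 0.874%, and in SFN-fed cKOAstro from 0.708% over a median of 0.770% to 1.12%, the latter in SFN-fed cKOAstro 1. The 4 groups overlapped, and SFN-fed cKOAstro 1 lay above every other library. In such bulk samples, fewer cells of a type and less RNA per cell cannot be told apart.

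**Figure D1:**
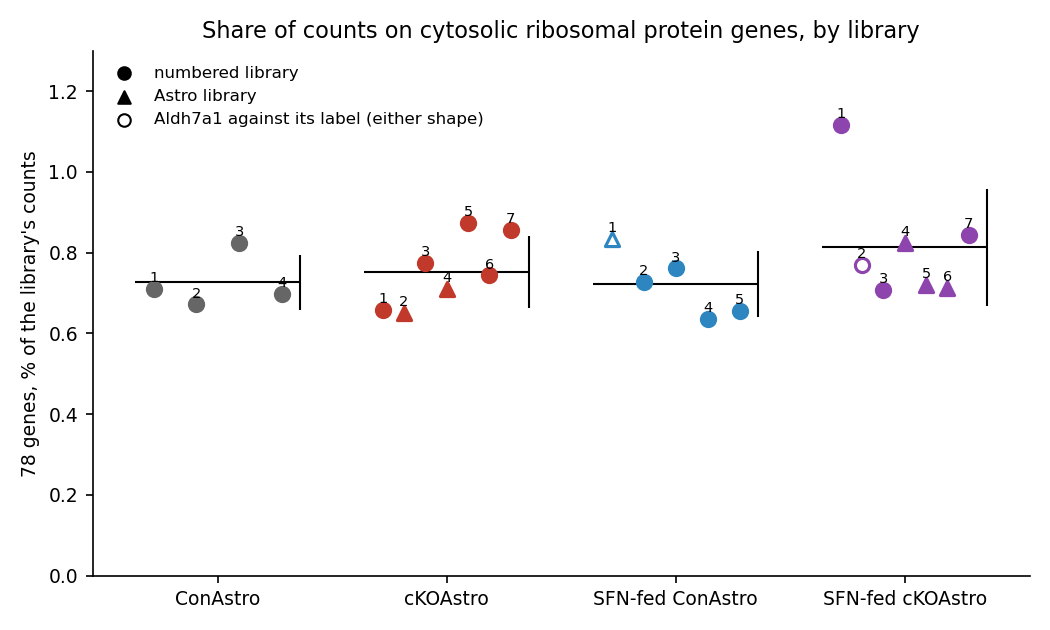
Share of all counts taken by the 78 cytosolic ribosomal protein genes, in percent, for each of the 23 libraries by group, with replicate numbers, the group mean as a horizontal line and 1 SD to each side as a vertical line; triangles are the Astro name series and open symbols the 2 libraries whose Aldh7a1 went against the label. The groups overlap between 0.636 and 0.874%, and SFN-fed cKOAstro 1 lies above them at 1.12%.

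The members of both subunits rose and fell together from mouse to mouse. For each gene the log2 CPM in a library was set against the gene's own mean over all 23 libraries, and the median of these deviations over the 78 genes was taken. It was −0.08, −0.16, 0.06 and −0.10 in ConAstro 1 to 4, and 0.14, −0.10, 0.03, −0.18 and −0.22 in SFN-fed ConAstro 1 to 5. It was 0.57, 0.08, −0.08, 0.22, −0.07, −0.08 and 0.19 in SFN-fed cKOAstro 1 to 7, and ran from −0.25 to 0.15 in cKOAstro. The group means were −0.07 ± 0.09, −0.07 ± 0.15, 0.12 ± 0.24 and −0.03 ± 0.15 (SD) in the same order, so that the highest group also had the widest spread. All 78 genes were above their own mean in SFN-fed cKOAstro 1 and also in cKOAstro 5.

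**Figure D2:**
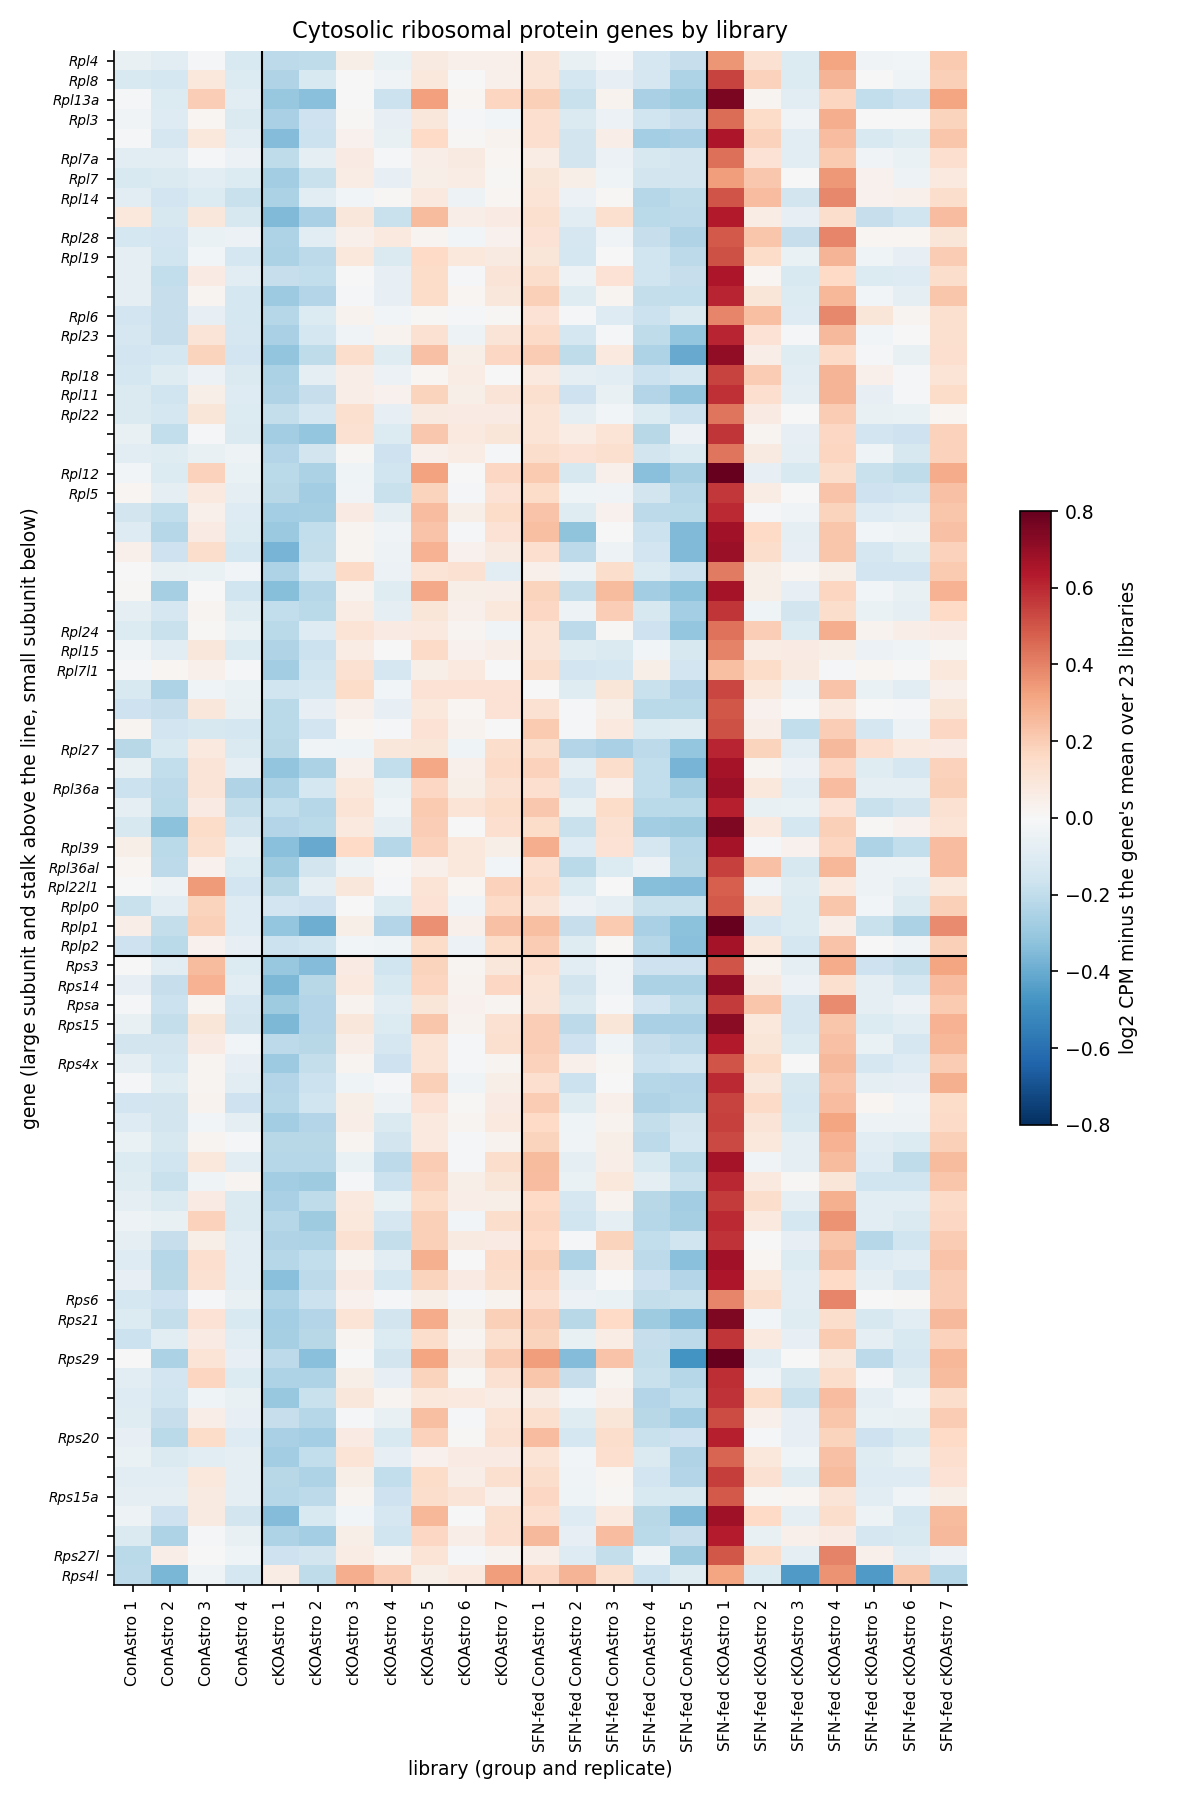
Deviation of log2 CPM from each gene's own mean over the 23 libraries, the 78 genes from top to bottom, with names for those the text describes, and libraries from left to right by group. Many columns lean to 1 colour and others are mixed. SFN-fed cKOAstro 1 is high throughout at a median of 0.57, and Rps4l is among the genes that depart from the rest.

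For the correlations and components that follow, the mean of each group was first subtracted from the log2 CPM of every gene. Over the 3003 pairs of these genes the median Pearson r of these values across the 23 libraries was 0.903. Every pair was above 0, and the lowest was 0.156. The median over pairs of the 17220 other tested genes was −0.0078. The first principal component held 89.2% of the variance of the members and the second 3.36%. Without SFN-fed cKOAstro 1 the median r was 0.856, the lowest pair 0.0301 and the first component 83.6%. These are descriptions over libraries that differ in depth and cell make-up, with no test.

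With group means subtracted in the same way, Rps15 was among the genes that followed the median of the 78 most closely (r = 0.989, n = 23). Rps4l (0.605), Rpl7l1 (0.65) and Rps27l (0.755) followed it least, and the other 75 genes all had an r above 0.8. Of genes outside the set, Fau, which encodes the small subunit protein eS30 fused to a ubiquitin-like domain, was most like it (0.981). Others near it were Eef1b2, a guanine exchange subunit of elongation factor 1 (0.979), the prefoldin subunit Pfdn5 (0.954) and Gnb2l1, the ribosome scaffold also called Rack1 (0.947). Plekhg1 (−0.883) and Ints2 (−0.871) ran most opposite.

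Levels between genes are given per kilobase of exon, which covers all exons of the protein-coding transcripts, and they spanned 37.3-fold among the 78. The highest were the stalk gene Rplp1 at 338 CPM per kb, Rps15 at 264, Rpl8 at 245, Rps21 at 212 and Rpl4, whose protein lines the exit tunnel, at 198. The lowest were Rps15a at 9.06 CPM per kb over an exon union of 5395 bp, Rpl36al at 12.1, Rps20 at 14.4, Rps4l at 14.8 and Rpl7l1 at 16.2. The long annotated exon union of Rps15a lowers its value per kilobase, and levels therefore describe the annotation as well as the message.

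**Figure D3:**
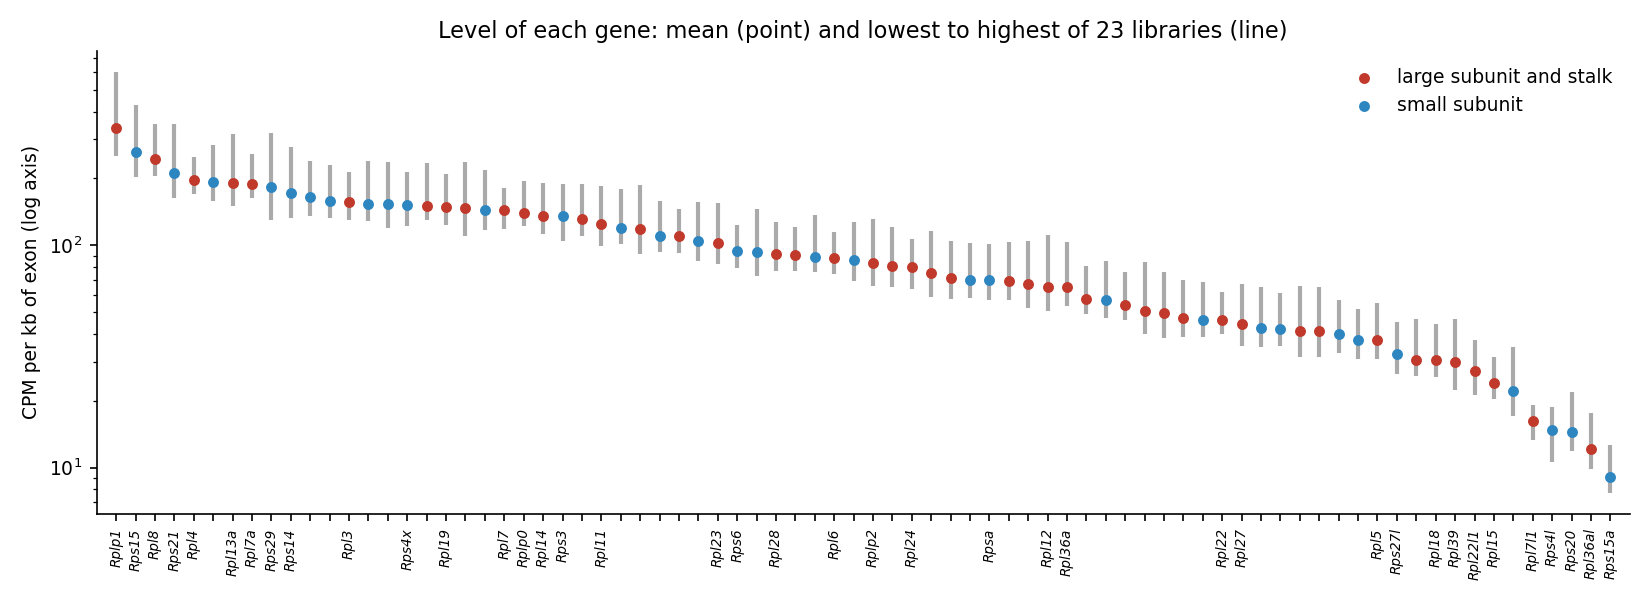
Mean level of the 78 genes in CPM per kilobase of exon on a log axis, ordered from highest to lowest and coloured by subunit, with names for those the text describes and grey lines from the lowest to the highest of the 23 libraries. Values run from 9.06 for Rps15a to 338 for Rplp1, and large and small subunit genes are mixed along the order.

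The 7 names below the level included 4 genes of the ordinary ribosome. Rpl26 (chr11:68901583-68906989, plus strand, GRCm38) had 0 reads, which allows up to 0.00766 to 0.064 CPM in a library at 3 counts, for counting error only. Rpl30 was at 0.278, Rps27 at 0.646 and Rpl34 at 1.21 CPM. The other 3 were the paralogs Rpl10l (0.0015), Rpl39l (0.037) and Rpl3l (0.666), the last a muscle form. Just inside the level were Rps4l at 13.98, Rpl22l1 at 15.3, Rpl36al at 16.4, Rpl39 at 18.3 and Rps27l at 18.7 CPM. The annotation lists 300 processed copies with ribosomal protein names ending in -ps, of which 7 were in the count table, the highest being Rpl14-ps1 at 1.13 CPM. The gene counts of STAR leave out reads that align to several places, such as a gene and its copy, so absolute levels of these genes are uncertain, and whether this set the values of Rpl26, Rpl30, Rps27 and Rpl34 was not tested.

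Within groups, the median SD of log2 CPM was 0.18 for the 78 genes, against 0.23 over the 17220 other tested genes. The 78 were chosen for a level of at least 10 CPM and the others were not. Genes of like level were not compared, so the lower SD cannot be read as a trait of the set. Among the 78, the steadiest were Rpl7l1 (0.12), Rpl7a (0.13), Rpl7 (0.13), Rpl6 (0.13) and Rpl15 (0.13). The most variable were Rplp1 (0.31), Rps29 (0.29), Rpl12 (0.26), Rpl13a (0.26) and Rps21 (0.25).

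In SFN-fed cKOAstro 1 the shift reached other genes by their length. In that library the median deviation was 0.31 over 1095 other genes with under 1000 bp of exon and −0.28 over 3810 genes of 5000 bp or more. In the other SFN-fed cKOAstro libraries the short genes lay between −0.07 and 0.12 and the long genes between −0.18 and 0.05. Long genes were lowest after SFN-fed cKOAstro 1 in SFN-fed cKOAstro 4 (−0.18) and 2 (−0.11), where the 78 genes stood at 0.22 and 0.08, while SFN-fed cKOAstro 7 had long genes at 0.04 and the 78 genes at 0.19. The part of this shift in the level of the ribosomal protein genes was not tested.

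**Figure D4:**
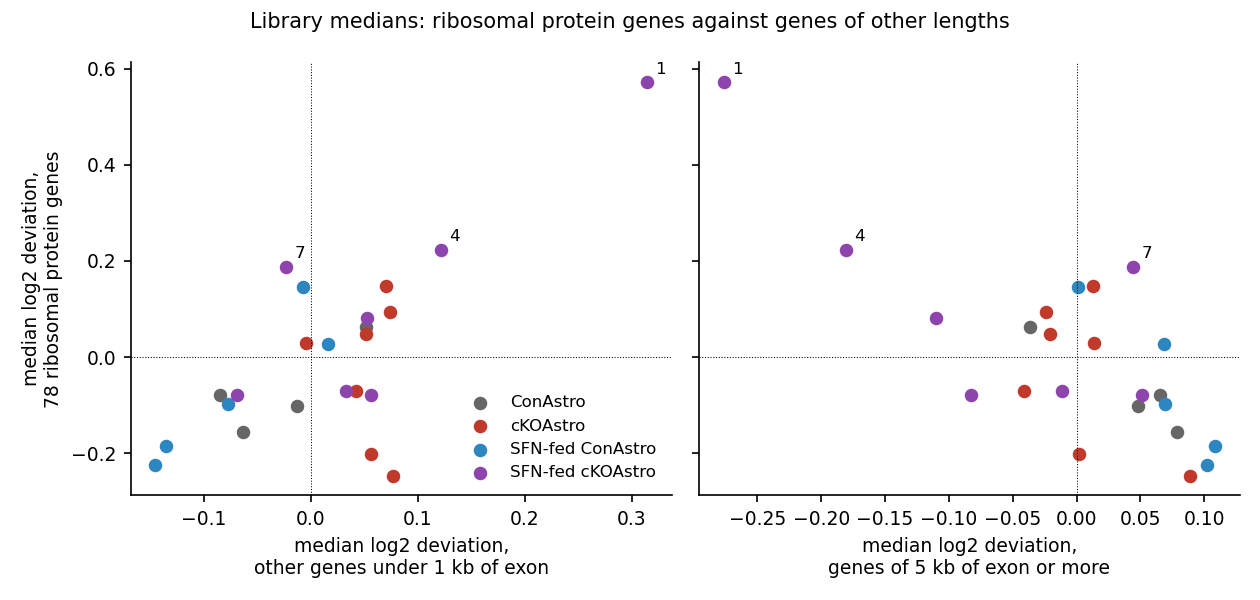
Each point is 1 of 23 libraries, coloured by group, with the median deviation of log2 CPM of the 78 ribosomal protein genes on the vertical axis and, on the horizontal axes, that of 1095 other genes under 1000 bp of exon (left) and of 3810 genes of 5000 bp or more (right); 3 SFN-fed cKOAstro libraries carry their replicate number. In SFN-fed cKOAstro 1 the values are 0.57, 0.31 and −0.28.

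On the control diet, the ribosomal protein genes of cKOAstro mice stood near their ConAstro level. The median log2 fold change, cKOAstro over ConAstro, was 0.04, from −0.08 for Rps3 to 0.30 for Rps4l, against a median of −0.0072 over all 17406 genes tested. There were 62 genes above 0 and 16 below, where 47.5% of all genes were above. None of the 78 passed an adjusted p of 0.05 by edgeR, where 0.023% of all genes did. At an unadjusted p under 0.05, 1 of the 78 was higher (1.28%) and 0 were lower, where 1.71% of all genes were higher and 2.03% lower. The 1 gene was Rps4l, and the median was 0.05 for the large subunit with the stalk and 0.03 for the small subunit.

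The ribosomal protein genes of SFN-fed ConAstro mice were about level with ConAstro as well. The median, SFN-fed ConAstro over ConAstro, was −0.00095, with 39 genes above 0 and 39 below, from −0.18 for Rpl22l1 to 0.24 for Rps4l. None passed the adjusted threshold, where 0.0% of 16509 genes did, and by edgeR 0 were higher and 0 lower at an unadjusted p under 0.05, where 3.54% of all genes were higher and 3.0% lower. DESeq2 and limma-voom each gave 1 gene higher at that p. The library labelled SFN-fed ConAstro 1, whose Aldh7a1 was at the level of the knockout, was the highest of its group for the 78 genes at 0.14, and without it the median was −0.06, with 2 genes lower at that p, where 4.43% of all genes were.

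The SFN-fed cKOAstro mice had on average the highest ribosomal protein messages of the 4 groups, by a small margin with which no gene passed the adjusted threshold by edgeR. Against SFN-fed ConAstro the median log2 fold change was 0.19, with 77 of 78 genes above 0, from −0.08 for Rps4l to 0.36 for Rpl27, where 51.2% of all genes were above 0. Against cKOAstro on the control diet it was 0.16, with 77 above 0, from −0.13 for Rps4l to 0.23 for Rpsa, where 51.5% of all genes were. Against ConAstro it was 0.18, with all 78 above 0, from 0.0061 for Rpl22l1 to 0.30 for Rpl14, where 47.6% of all genes were. These 3 comparisons share the 7 SFN-fed cKOAstro libraries and are not independent of each other. Since the 78 genes move as 1, a count of genes above 0 adds little to the median.

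Tested gene by gene by edgeR, no member passed the adjusted threshold. The share higher at an unadjusted p under 0.05 was above that of all genes in each of the 3 comparisons, but this order depended on the fit. Against SFN-fed ConAstro it turned with total counts (3.85 against 8.63% of all genes), with limma-voom (15.4 against 17.6%) and without SFN-fed cKOAstro 1 (5.13 against 10.5%). These alternatives turned it against cKOAstro as well, but not against ConAstro. Against SFN-fed ConAstro it also turned without SFN-fed ConAstro 2, 3, 4 or 5 (2.56, 6.41, 1.28 and 1.28 against 8.23, 8.36, 9.29 and 8.12%). The same held without SFN-fed cKOAstro 4 (1.28 against 9.78%) or 7 (8.97 against 13.3%). Against cKOAstro it also turned without cKOAstro 1 (1.28 against 2.91%), cKOAstro 2 (2.56 against 6.13%) or SFN-fed cKOAstro 4 (2.56 against 3.77%). Further fits that turned it there are given below. As the 78 genes move as 1, such counts are not separate events. Against SFN-fed ConAstro, 12 of 78 (15.4%) were higher and 0 lower at an unadjusted p under 0.05, where 11.4% of 16672 genes were higher and 8.89% lower, and 0.0% passed the adjusted threshold. Against cKOAstro, 10 (12.8%) were higher and 0 lower, where 5.38% of 16903 genes were higher, 5.5% lower and 0.0% past the adjusted threshold. Against ConAstro, 6 (7.69%) were higher and 0 lower, where 4.01% of 16753 genes were higher, 4.66% lower and 0.0% past the adjusted threshold. Of the 12 genes, 11 belonged to the large subunit and 1, Rps6, to the small, yet the medians of the subunits were close, at 0.20 and 0.19. Against cKOAstro the medians were 0.16 and 0.17, and against ConAstro 0.18 and 0.19.

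**Figure D5:**
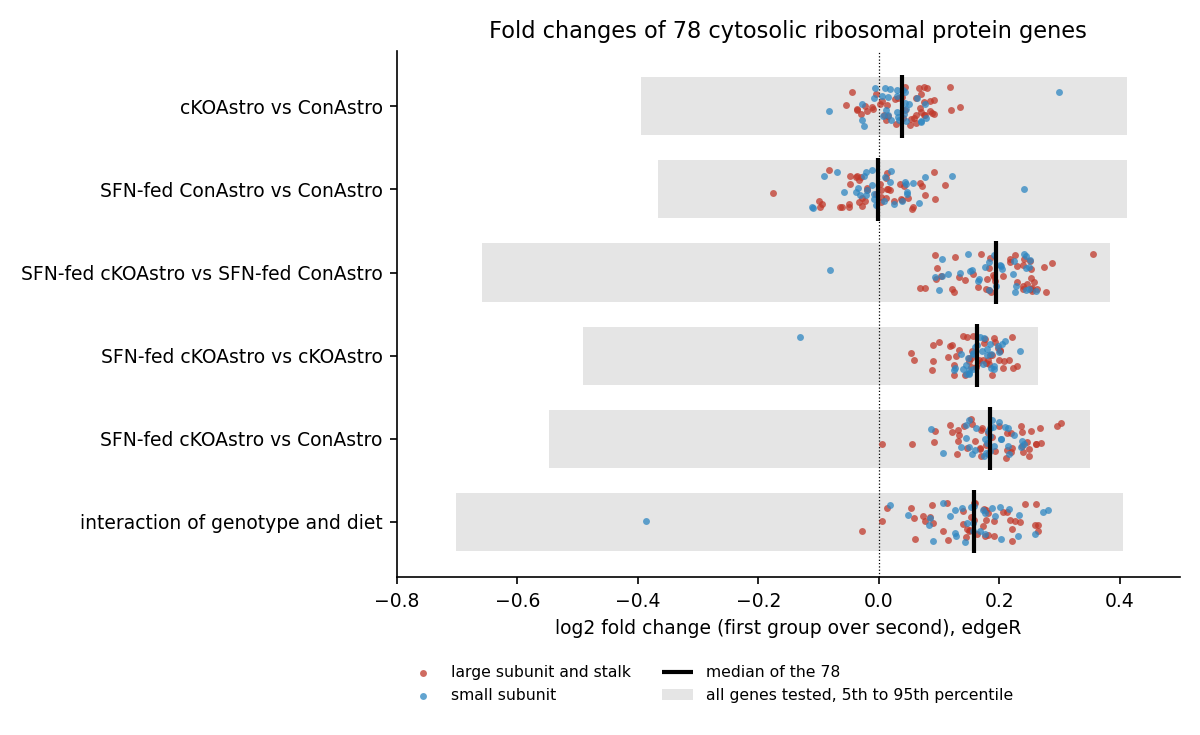
Log2 fold changes by edgeR of the 78 genes in each of the 6 comparisons, 1 point a gene coloured by subunit, with the median of the 78 as a bar and the range from the 5th to the 95th percentile of all tested genes as a grey band. The medians lie at 0.19, 0.16 and 0.18 in the comparisons of SFN-fed cKOAstro and near 0 in the other pairs, and nearly all points lie inside the bands.

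These differences rested in good part on SFN-fed cKOAstro 1. Without it, the median fell to 0.11 against SFN-fed ConAstro, to 0.09 against cKOAstro and to 0.11 (0.105) against ConAstro, with 4, 2 and 6 genes (5.13, 2.56 and 7.69%) higher at an unadjusted p under 0.05, where 10.5, 5.71 and 5.1% of all genes were. Without both libraries that went against their labels, the medians were 0.27, 0.17 and 0.20, with 19, 4 and 6 genes (24.4, 5.13 and 7.69%), where 9.01, 3.04 and 2.9% of all genes were higher. Without all 3 libraries they were 0.18, 0.06 and 0.11, with 12, 0 and 3 genes (15.4, 0.0 and 3.85%), where 8.33, 2.35 and 2.33% of all genes were. The count against SFN-fed ConAstro was moved by over 1.5 times by each of its 12 libraries. At the lowest, 1 gene (1.28%) was higher without SFN-fed ConAstro 4, SFN-fed ConAstro 5 or SFN-fed cKOAstro 4. Of all genes, 9.29, 8.12 and 9.78% were higher in those fits. At the highest, 31 genes (39.7%) were higher without SFN-fed ConAstro 1, at a median of 0.26, where 12.2% of all genes were. Against cKOAstro the count ran from 1 gene without cKOAstro 1 to 27 without SFN-fed cKOAstro 3, where 2.91 and 10.9% of all genes were higher. Against ConAstro it ran from 3 without ConAstro 1 or 2 to 22 without SFN-fed cKOAstro 3, where 2.93, 2.86 and 8.6% of all genes were higher. The pooled SD of the library medians within groups was 0.18, as large as the differences.

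The difference of differences, which asks whether SFN moved the genes more in cKOAstro than in ConAstro mice, had a median of 0.16 with 76 genes above 0 and 2 below, where 49.4% of all genes were above. None of the 78 had an unadjusted p under 0.05 in either direction by edgeR, where 4.36% of 17302 genes were higher, 2.96% lower and 0.0% past the adjusted threshold. The lowest was that of Rpl3, at 0.23 ± 0.12 (SE) and an adjusted p of 0.678 by edgeR. The median was 0.08 without SFN-fed cKOAstro 1 and 0.23 without both libraries against their labels, with 0 and 3 genes higher at an unadjusted p under 0.05, where 3.83 and 5.28% of all genes were. Without all 3 it was 0.14, with 2 genes, where 4.51% of all genes were higher.

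Among the large subunit genes, Rpl27 (chr11:101442298-101445529, plus strand) had the largest difference between SFN-fed cKOAstro and SFN-fed ConAstro. It was at 32.9, 35.3, 40.5 and 35.4 CPM in ConAstro and at 42.3, 32.6, 32.1, 33.2 and 30.9 CPM in SFN-fed ConAstro. In SFN-fed cKOAstro it was at 58.7, 43.4, 36.2, 45.9, 42.2, 40.5 and 40.2 CPM, and in cKOAstro it ran from 32.9 over a median of 37.7 to 42.2 CPM. The library labelled SFN-fed ConAstro 1 lay among the SFN-fed cKOAstro libraries, and the other 4 of its group below all 7 of them. Those 7 include the library labelled SFN-fed cKOAstro 2, at 43.4 CPM, whose Aldh7a1 also went against its label. The log2 fold change between these groups was 0.36 ± 0.12 (SE), with an adjusted p of 0.195 by edgeR. With limma-voom and quality weights it was 0.33 ± 0.09 and the adjusted p 0.0168, in a fit that put 4398 of 16672 genes past the threshold. This was the single pass of the adjusted threshold by any of the 78 genes in the 161 fits. The edgeR value was 0.27 without SFN-fed cKOAstro 1 and 0.45 without both libraries that went against their labels.

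Rpl6 (chr5:121204481-121209241, plus strand) was at 99.5, 97.5, 106 and 100.3 CPM in ConAstro and at 120, 110, 103, 98.2 and 102 CPM in SFN-fed ConAstro. In SFN-fed cKOAstro it was at 145, 131, 103, 144, 118, 113 and 121 CPM, and in cKOAstro between 94.3 and 113 with a median of 110 CPM. All but 1 of the SFN-fed cKOAstro libraries lay above the 4 ConAstro libraries, and the log2 fold change was 0.30 ± 0.10 (SE), with an adjusted p of 0.557 by edgeR. Against cKOAstro it was 0.22 ± 0.08, with an adjusted p of 0.459 by edgeR. Without SFN-fed cKOAstro 1 the values were 0.27 and 0.20, and without both libraries against their labels 0.30 and 0.21. Rpl6 had the lowest p of the 78 in both comparisons and was among the 5 steadiest within groups.

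Rpl14 (chr9:120571444-120574654, plus strand), with its long C and T run, was at 128, 122, 126 and 120 CPM in ConAstro and at 146, 131, 136, 115 and 118 CPM in SFN-fed ConAstro. In SFN-fed cKOAstro it was at 192, 160, 122, 177, 139, 139 and 149 CPM, and in cKOAstro between 114 and 143 with a median of 133 CPM. The pattern was that of Rpl6: SFN-fed cKOAstro 3 lay among the ConAstro libraries and the other 6 above them. The log2 fold change against ConAstro was 0.30 ± 0.11 (SE), with an adjusted p of 0.557 by edgeR. It was 0.25 without SFN-fed cKOAstro 1 and 0.31 without both libraries against their labels.

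Rpl3 (chr15:80077791-80091868, minus strand), whose protein reaches the peptidyl transferase centre, was at 207, 196, 214 and 195 CPM in ConAstro and at 232, 195, 204, 189 and 186 CPM in SFN-fed ConAstro. It ran from 176 over 208 to 225 CPM in cKOAstro and from 207 over 234 to 288 CPM in SFN-fed cKOAstro. All SFN-fed cKOAstro libraries lay above the SFN-fed ConAstro libraries other than the library labelled SFN-fed ConAstro 1. They include the library labelled SFN-fed cKOAstro 2, at 234 CPM, whose Aldh7a1 also went against its label. The log2 fold change between these groups was 0.23 ± 0.10 (SE), with an adjusted p of 0.225 by edgeR. Rpl18 ran from 97.6 over 112 to 151 CPM in SFN-fed cKOAstro and from 92.1 to 110 CPM in SFN-fed ConAstro, a log2 fold change of 0.24 ± 0.10, and Rpl24 differed by 0.25 ± 0.10, with adjusted p of 0.221 and 0.211 by edgeR. Without both libraries against their labels, Rpl3 differed by 0.29, Rpl18 by 0.28 and Rpl24 by 0.30. The others of the 12 were Rpl6, Rpl11, Rpl8, Rpl14, Rpl23, Rps6, Rpl28 and Rpl19. Rpl11, which with Rpl5 binds and holds back the p53 ligase MDM2, differed by 0.28 ± 0.12, and Rpl5 by 0.18 ± 0.12.

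The stalk is the arm of the large subunit that recruits the elongation factors, with Rplp0 as its base and Rplp1 and Rplp2 as its arms. Rplp0 (chr5:115559467-115563727, plus strand) was at 167, 178, 213 and 176 CPM in ConAstro and at 202, 183, 179, 167 and 167 CPM in SFN-fed ConAstro. It ran from 168 over 185 to 210 CPM in cKOAstro and from 174 over 201 to 265 CPM in SFN-fed cKOAstro. Rplp2 (chr7:141447370-141451585, plus strand) was at 77.7, 74.99, 89.1 and 83.2 CPM in ConAstro and at 100.0, 81.4, 87.5, 74.2 and 69.0 CPM in SFN-fed ConAstro. For both the groups overlapped.

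Rplp2 ran from 77.2 over 84.7 to 96.3 CPM in cKOAstro and from 79.0 over 92.0 to 138 CPM in SFN-fed cKOAstro. Rplp1 (chr9:61913284-61914542, minus strand) was at 171, 145, 188 and 154 CPM in ConAstro and at 195, 146, 191, 138 and 131 CPM in SFN-fed ConAstro. It ran from 126 over 170 to 212 CPM in cKOAstro and from 139 over 153 to 302 CPM in SFN-fed cKOAstro. Rplp1 was the most variable gene within groups, and its SFN-fed cKOAstro median lay below that of cKOAstro while its mean lay above. The log2 fold changes, SFN-fed cKOAstro over SFN-fed ConAstro, were 0.19 ± 0.11 (SE) for Rplp0, 0.18 ± 0.19 for Rplp1 and 0.24 ± 0.13 for Rplp2, all short of an unadjusted p under 0.05. They were 0.24, 0.31 and 0.33 without both libraries against their labels, the last of these at an unadjusted p under 0.05.

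Among the small subunit genes, Rps6, whose protein is phosphorylated by the S6 kinases downstream of mTOR, was at 74.8, 73.5, 81.9 and 79.0 CPM in ConAstro and at 90.5, 79.6, 79.3, 72.1 and 73.0 CPM in SFN-fed ConAstro. It ran from 69.5 over 82.0 to 85.0 CPM in cKOAstro and from 77.4 over 90.7 to 108 CPM in SFN-fed cKOAstro. It was among the genes with an unadjusted p under 0.05 in all 3 comparisons of SFN-fed cKOAstro, at log2 fold changes of 0.22 ± 0.10, 0.20 ± 0.08 and 0.24 ± 0.10 (SE) over SFN-fed ConAstro, cKOAstro and ConAstro. These were 0.28, 0.21 and 0.25 without both libraries against their labels.

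Rpsa (chr9:120127689-120132369, plus strand), a small subunit protein also known as a laminin receptor, was at 174, 156, 179 and 160 CPM in ConAstro and at 189, 162, 174, 158 and 153 CPM in SFN-fed ConAstro. It ran from 145 over 179 to 188 CPM in cKOAstro and from 160 over 203 to 260 CPM in SFN-fed cKOAstro. Its log2 fold change over cKOAstro, 0.23 ± 0.11 (SE), was the largest of the 78 in that comparison, and was 0.23 without the library labelled SFN-fed cKOAstro 2. Rps14 was at 309 CPM in SFN-fed cKOAstro 1 and between 172 and 225 CPM in the other 6 of that group, and it had the largest difference of differences, 0.28 ± 0.19, which did not reach an unadjusted p under 0.05.

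Paralogs mostly followed the gene they resemble. Over SFN-fed ConAstro, SFN-fed cKOAstro differed by 0.19 for Rpl22l1 and 0.14 for Rpl22, by 0.26 for Rpl36al and 0.24 for Rpl36a, by 0.13 for Rpl7l1 and 0.18 for Rpl7, and by 0.25 for Rps27l, whose partner Rps27 was below the level. Within these 3 pairs the fold changes lay closer together than their standard errors, which were 0.07 to 0.13, and the difference itself was not tested. Without both libraries against their labels the fold changes were 0.28 and 0.19, 0.31 and 0.31, and 0.17 and 0.20 for these pairs, and 0.29 for Rps27l. Rpl22l1 was at 15.1, 14.7, 19.2 and 13.6 CPM in ConAstro and at 16.8, 14.02, 15.1, 11.95 and 11.9 CPM in SFN-fed ConAstro. It ran from 12.9 over 15.3 to 17.2 CPM in cKOAstro and from 14.2 over 14.8 to 21.03 CPM in SFN-fed cKOAstro, the highest again in SFN-fed cKOAstro 1.

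Rps4l (chr6:148354656-148355598, plus strand) was the gene that went its own way. It is annotated as a transcribed processed pseudogene, the only one of the 78 not listed as protein coding, and it resembles Rps4x, so that reads shared between them make both uncertain. It was at 11.9, 10.7, 13.4 and 12.5 CPM in ConAstro and at 15.5, 16.6, 15.1, 12.2 and 12.8 CPM in SFN-fed ConAstro. It ran from 11.9 over 14.5 to 17.4 CPM in cKOAstro and was at 17.1, 12.8, 10.1, 17.6, 10.03, 16.1 and 11.7 CPM in SFN-fed cKOAstro. The last group spanned the range of all the others.

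Its log2 fold change was 0.30 ± 0.11 (SE) in cKOAstro over ConAstro, with an adjusted p of 0.981 by edgeR, and 0.24 ± 0.11 in SFN-fed ConAstro over ConAstro, with 0.769. Its difference of differences was −0.39 ± 0.20, with an adjusted p of 0.68 by edgeR. Without the library labelled SFN-fed ConAstro 1, the second of these Rps4l values was 0.22. Rps4x, by contrast, was at 139, 133, 149 and 140 CPM in ConAstro and differed by −0.0072 in cKOAstro over ConAstro and by 0.15 ± 0.11 in SFN-fed cKOAstro over SFN-fed ConAstro.

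Other genes of the ribosome and its upkeep were read from 4 lists, and none of their genes passed the adjusted threshold in any comparison by edgeR. The 16 translation factors with TOP messages had a median of 0.14 in SFN-fed cKOAstro over SFN-fed ConAstro. At an unadjusted p under 0.05, 5 were higher and 0 lower, where 11.4% of all genes were higher and 8.89% lower. Over cKOAstro 7 were higher and over ConAstro 5, where 5.38 and 4.01% of all genes were, with medians of 0.14 and 0.15 and 0 lower. The largest of these differences were those of the elongation factor 1 exchange subunits Eef1d (0.31 ± 0.09, SE) and Eef1g (0.27 ± 0.09) over SFN-fed ConAstro. In cKOAstro over ConAstro the median was 0.01 with 1 gene higher, the initiation factor subunit Eif3f (0.13), where 1.71% of all genes were. In SFN-fed ConAstro over ConAstro it was −0.0025, again with Eif3f higher (0.22), where 3.54% of all genes were. For the difference of differences, 2 were higher, Eef1g (0.26) and Eef1d (0.24), where 4.36% of all genes were, with a median of 0.14. Without both libraries against their labels, the medians over SFN-fed ConAstro, cKOAstro and ConAstro were 0.18, 0.14 and 0.17. Then 5, 3 and 4 genes were higher, where 9.01, 3.04 and 2.9% of all genes were. By library, the median deviation of these factors was highest in SFN-fed cKOAstro 1 (0.26) and 4 (0.24). In the other SFN-fed cKOAstro libraries it lay between −0.02 and 0.10. The part of those libraries in these differences was not tested.

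The 22 ribosome biogenesis genes had a median of 0.13 over SFN-fed ConAstro, with 19 above 0. At an unadjusted p under 0.05, 8 were higher and 0 lower, where 11.4% of all genes were higher and 8.89% lower. Over cKOAstro 9 were higher, where 5.38% of all genes were, with a median of 0.12 and all 22 above 0. Over ConAstro 2 were higher, where 4.01% of all genes were, with a median of 0.08. They included the nucleolar factor Ebna1bp2 (0.26), the pseudouridine synthase Dkc1 (0.17) and the ribosomal DNA factor Ubtf (0.16) over SFN-fed ConAstro. The difference of differences was higher for 8 of them at an unadjusted p under 0.05, where 4.36% of all genes were. Its median was 0.16, led by Nob1, the nuclease that finishes the small subunit RNA (0.35 ± 0.11, SE). In cKOAstro over ConAstro 1 was higher, Rrs1 (0.12), and 1 lower, Ltv1 (−0.13), and in SFN-fed ConAstro over ConAstro 0 were higher and 0 lower, with medians of −0.04 and −0.05. Of all genes, 1.71% were higher and 2.03% lower in the former, and 3.54 and 3.0% in the latter. Without both libraries against their labels, 9, 7 and 2 were higher over SFN-fed ConAstro, cKOAstro and ConAstro, where 9.01, 3.04 and 2.9% of all genes were. The medians were 0.16, 0.13 and 0.09. In SFN-fed ConAstro over ConAstro 3 were then lower (median −0.07), where 4.43% of all genes were. The median deviation of the biogenesis genes was also highest in SFN-fed cKOAstro 1 (0.18) and 4 (0.15). It lay between −0.01 and 0.09 in the other SFN-fed cKOAstro libraries. The part of SFN-fed cKOAstro 1 and 4 in these differences was not tested.

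The 10 regulators of TOP translation and mTOR did not share this shift, with medians between −0.03 and 0.03 in the 6 comparisons. The S6 kinase Rps6kb2 was higher over SFN-fed ConAstro (0.37) and lower in SFN-fed ConAstro over ConAstro (−0.20), and Larp1 was higher over cKOAstro (0.15), each at an unadjusted p under 0.05. Myc was higher at that p in cKOAstro (0.31) and in SFN-fed cKOAstro (0.39) over ConAstro, where Rps6kb1 was lower (−0.17). Fau differed by 0.05 in cKOAstro and 0.06 in SFN-fed ConAstro over ConAstro, and Gnb2l1 by −0.01 and −0.04. In SFN-fed cKOAstro over SFN-fed ConAstro, cKOAstro and ConAstro, Fau differed by 0.17, 0.18 and 0.22 and Gnb2l1 by 0.17, 0.15 and 0.12, none of them at an unadjusted p under 0.05.

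Markers of other cells also differed between the groups. All 7 oligodendrocyte markers were above 0 in SFN-fed cKOAstro over SFN-fed ConAstro, cKOAstro and ConAstro, with medians of 0.31, 0.33 and 0.33. Of these, 1, 1 and 0 had an unadjusted p under 0.05, where 11.4, 5.38 and 4.01% of all genes were higher. The summed level of the oligodendrocyte markers was 24510 to 28340 CPM in ConAstro, 22110 to 31140 in cKOAstro, 21520 to 30200 in SFN-fed ConAstro and 23940 to 55860 in SFN-fed cKOAstro, the highest in SFN-fed cKOAstro 4. Over SFN-fed ConAstro, all 8 microglial markers were below 0 (median −0.49), as were all 6 endothelial markers (−0.82, 5 at an unadjusted p under 0.05) and all 8 mural and fibroblast markers (−0.49, 6 at that p). Of all genes, 8.89% were lower at that p. Over cKOAstro, all 6 endothelial markers were above 0 (median 0.30, 0 at that p), 5 of 8 microglial markers were below 0 (−0.10) and all 8 mural markers were below 0 (−0.41, 4 at that p). Of all genes, 5.38% were higher and 5.5% lower in this comparison. Over ConAstro the medians were −0.24 for endothelial, −0.38 for microglial and −0.26 for mural markers, with 0 at that p, where 4.66% of all genes were lower. Without both libraries against their labels, the medians over SFN-fed ConAstro were −0.07 for microglial, −0.82 for endothelial, −0.55 for mural and 0.34 for oligodendrocyte markers. At an unadjusted p under 0.05, 4 mural markers were then lower, and 0 microglial, 0 endothelial and 0 oligodendrocyte markers differed. Of all genes, 9.01% were then higher and 5.92% lower. The summed endothelial level was 412 to 657 CPM in SFN-fed ConAstro and 138 to 664 CPM in SFN-fed cKOAstro, and that of the microglia 770 to 2459 and 254 to 2876 CPM. Astrocyte markers had medians of −0.06, −0.13 and −0.16 in the 3 comparisons, neurons 0.06, 0.02 and 0.26, oligodendrocyte precursors −0.49, −0.20 and −0.38, ependymal cells 0.27, −0.44 and −0.12, and 9 genes of the response to dissociation −0.27, 0.14 and 0.01. In cKOAstro over ConAstro, all 6 endothelial markers were below 0 (median −0.48, 4 at an unadjusted p under 0.05, where 2.03% of all genes were lower). Medians there were −0.24 for microglial, 0.16 for mural and 0.33 for neuronal markers. In SFN-fed ConAstro over ConAstro, all 6 endothelial (0.63, 3 at that p) and all 8 mural markers (0.36, 5 at that p) were above 0, where 3.54% of all genes were higher. Ependymal markers were at −0.35. The part of other cells in the levels of the ribosomal protein genes was not tested.

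The labels also name the libraries in 2 series, one numbered and one with Astro in the name, and the second holds 6 libraries, none of them ConAstro. Within the numbered series the medians were 0.09 for cKOAstro over ConAstro, −0.06 for SFN-fed ConAstro over ConAstro, and 0.30, 0.16 and 0.26 for SFN-fed cKOAstro over SFN-fed ConAstro, cKOAstro and ConAstro. That of the difference of differences was 0.22. The numbered names begin with a prefix number, and it was the same in every ConAstro library. Outside ConAstro, only SFN-fed cKOAstro libraries carried that prefix. Numbered cKOAstro libraries shared no prefix with any other group. With or without the Astro libraries, cKOAstro over ConAstro and SFN-fed ConAstro over ConAstro thus cannot be separated from prefix. In the numbered series the same holds for SFN-fed cKOAstro over cKOAstro. The part of the prefix in these medians was not tested. Within the Astro series SFN-fed cKOAstro over cKOAstro had a median of 0.17 with all 78 above 0 and 0 at an unadjusted p under 0.05, and the other comparisons could not be made there.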

How the data were processed

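RNA was poly(A) selected and sequenced in pairs from 23 libraries of ACSA-2 isolated cortical astrocytes. The authors deposited 1 table of read counts per gene and library, with no normalization. Per the study's methods, reads were checked with FastQC, aligned to mm10 with STAR and counted per gene by STAR's own gene counting. The annotation and the strand column taken are not given in the sources used here. Every column was mapped to its library by name, and 0 columns were left unused.

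From the counts, CPM and log2 CPM (prior count 2) were computed with TMM library sizes. Groups were compared in pairs with edgeR 4.0.16 (R 4.3.3), its quasi-likelihood test, filterByExpr, and Benjamini-Hochberg adjustment over all genes that passed the filter at a threshold of 0.05. All 78 genes passed it in every comparison. The difference of differences was fitted over the 4 groups. DESeq2 1.42.0, limma 3.58.1 (voom with quality weights), other scalings, no filter, thinned counts, a replicate block, the name series, and fits without single libraries were alternatives. The edgeR step was tested on simulated data. Positions, exon lengths and gene types came from GENCODE M21, start sites from RefSeq on GRCm38.p6. A level with no reads was given the limit that 3 counts allow.

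Named were the 5 genes with the lowest p in a comparison, the 5 highest and lowest per kilobase, the 5 most and least variable, those nearest 10 CPM, the stalk genes with Rpsa, the paralog pairs, Aldh7a1, and up to 3 genes a list and comparison with an unadjusted p under 0.05. Rpl5, Rpl11 and the rest of the 12 genes of 1 count were named after their values were seen, as was Rps14 for its difference of differences. The members and lists were chosen with earlier results of these data known. Replicate numbers did not pair libraries: 29 same-number pairs had a correlation of deviations from −0.22 to 0.336, 8 of them over 0.1. No 2 libraries of a group agreed within counting noise (lowest chi-square per degree of freedom 42.7). A few genes that fall under these rules are not reported here by name.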

Additional observations from a re-analysis of the deposited data

Results flagged for a closer look

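In 9 of 80 groups of values tested, over 17 genes and 3 library measures, 1 library lay far from the others of its group by Dixon's criterion, which chance alone meets in about 1 of 20 groups. Of these, 6 were SFN-fed cKOAstro 1: the share of counts on the 78 genes (1.117%), Rpl27 (58.67 CPM), Rplp2 (137.8 CPM), Rpl22l1 (21.03 CPM), Rps14 (309.4 CPM) and Rps29 (125.0 CPM), each the highest of its group. The measures move together and are not separate events. Rpl27 was also far from its group in the library labelled SFN-fed ConAstro 1 (42.3 CPM). Aldh7a1 went against the label in that library (55.68 CPM) and in the library labelled SFN-fed cKOAstro 2 (221.9 CPM).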

How the results depend on the processing

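In 160 of 161 fits none of the 78 genes passed the adjusted threshold; limma-voom with quality weights gave 1, Rpl27, in SFN-fed cKOAstro over SFN-fed ConAstro. Medians stayed above 0 in every alternative for SFN-fed cKOAstro over SFN-fed ConAstro (25 alternatives, 0.11 to 0.30), cKOAstro (28, 0.04 to 0.21) and ConAstro (24, 0.11 to 0.26) and for the difference of differences (35, 0.04 to 0.23). For cKOAstro over ConAstro they ran from −0.06 to 0.10, 1 of 22 below 0, and for SFN-fed ConAstro over ConAstro from −0.06 to 0.04, 12 of 21 below 0.

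Counts of genes at an unadjusted p under 0.05 moved more, as did the share of all genes, given in parentheses, and the cause was not tested. For cKOAstro over ConAstro, 1 gene higher became 6 with limma-voom (4.83%), 0 with all 4 groups in 1 fit (1.31%), and 2 with the name series as a covariate (1.55%) or the numbered libraries alone (1.73%). For SFN-fed cKOAstro over SFN-fed ConAstro, 12 became 3 with total counts (8.63%), 25 with all 4 groups in 1 fit (14.5%), 7 with the name series (8.87%), 42 in the numbered libraries (7.2%) and 19 without both libraries against their labels (9.01%). For SFN-fed ConAstro over ConAstro, 0 higher became 1 with DESeq2 (4.13%) and 1 with limma-voom (4.87%), and 0 lower became 1 with the name series (4.13%), 2 in the numbered libraries and 2 without both libraries against their labels (4.43%). For SFN-fed cKOAstro over cKOAstro, 10 became 1 with total counts (1.62%), 2 with limma-voom (13.9%), 4 with no filter (3.2%), 17 with all 4 groups in 1 fit (8.72%), 0 in the numbered (2.57%) or the Astro libraries alone (0.77%), 4 without both libraries against their labels (3.04%) and 0 without SFN-fed cKOAstro 1 as well (2.35%), the latter and the Astro libraries being chosen after seeing the data. For SFN-fed cKOAstro over ConAstro, 6 became 10 with TMM without the 78 genes (5.48%), 11 with DESeq2 (6.17%) or no filter (4.55%), 15 with limma-voom (12.2%), 25 with all 4 groups in 1 fit (9.64%), 10 with the name series (1.52%) or the numbered libraries (1.44%), and 3 without the 3 libraries (2.33%). For the difference of differences, 0 higher became 4 in the numbered libraries (5.67%), 3 without both (5.28%) and 2 without the 3 libraries (4.51%), and 0 lower became 1 with total counts (4.42%), limma-voom (11.99%) or the numbered libraries (4.53%).

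With a replicate block, which pairs nothing here since the numbers are only names, 5 genes were lower in cKOAstro over ConAstro, 24 higher in SFN-fed cKOAstro over SFN-fed ConAstro and 1 over cKOAstro (of all genes 2.63, 9.28 and 3.72%), with medians of −0.06, 0.21 and 0.15. Leaving out 1 library at a time gave 0 to 5 genes higher for cKOAstro over ConAstro (1.24 and 2.28% of all genes). For SFN-fed cKOAstro it gave 1 to 31 over SFN-fed ConAstro, 1 to 27 over cKOAstro and 3 to 22 over ConAstro. The shares of all genes in these fits are given above. For SFN-fed ConAstro over ConAstro it gave 0 to 3 higher (3.71% of all genes at 3) and 0 to 2 lower (4.43% at 2). For the difference of differences it gave 0 to 3 higher (6.19% at 3) and 0 to 1 lower (3.01 to 3.84% at 1). Where 0 were higher, the share of all genes was 2.13 to 4.46% in the former and 2.28 to 6.11% in the latter.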
